A study of Mus musculus with 4 samples.

Results

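Lymphocyte-recruiting chemokines and their receptors were described here as 9 genes picked by symbol from the 32285 genes of the deposited count matrices, all 9 of which were found. There were 7 ligand genes (Cxcl9, Cxcl10, Cxcl16, Ccl5, Xcl1, Ccl22 and Ccl17) and 2 receptor genes (Cxcr3 and Cxcr6). The rule that picks them uses symbols only, and the set was drawn up with earlier results of these data known. The libraries came from mouse prostate tumours whose cells were dissociated, depleted of red and dead cells, labelled with hashtag antibodies and pooled into 1 load for 10x Genomics single-cell RNA-seq. All 4 libraries carried Nkx3.1CreERT2, a tamoxifen-inducible Cre driven by a prostate epithelial gene, with PtenL/L and Smad4L/L. The 2 libraries called DKO had those alleles only, and the 2 called TKO had Pygo2L/L as well. Per the design text, the tumours (nDKOLuc or nTKOLuc) were taken 10 or 17 weeks after tamoxifen, and no label ties a library to either time. No label gives an age or says that the libraries of a group came from separate mice, and a p-value here therefore reflects only how far such libraries lie apart. Where 2 values are given for a group, replicate 1 comes first.

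Chemokines are small secreted proteins that bind G-protein-coupled receptors on leukocytes and guide them along gradients. CXCL9 and CXCL10, which interferons induce, bind CXCR3 on activated T and NK cells. CXCL16 exists as a membrane-anchored and a shed form and binds CXCR6. CCL5 attracts T cells and other leukocytes. XCL1 comes from NK and CD8 T cells and binds XCR1 on type 1 dendritic cells. CCL17 and CCL22, made by dendritic cells, bind CCR4 on regulatory and helper T cells.

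After removal of barcodes with under 200 genes or over 20% mitochondrial counts, 3381 of 3508 barcodes remained, 617 to 1208 per library. Median depth per library lay between 8404 and 10310 unique molecular identifiers (UMIs, each standing for 1 captured RNA molecule), and no barcode was shared between libraries. Clustering without the 9 genes and without other chemokine ligands and receptors gave 22 clusters, of which 21 could be named by marker genes. Neutrophil-like cells were most numerous (1419), followed by T-like (825), epithelial-like (201), macrophage- and monocyte-like (190), NK-like (188), type 1 and 2 dendritic-like (180) and fibroblast-like cells (157). Mature dendritic-like cells (35), ILC2-like cells (30) and the other named classes each fell under 20 cells in at least 1 library. A cluster of 33 barcodes with a median of 644 UMIs had no class. Epithelial-like cells were 201 in all, so most values concern immune cells. The epithelial-like cluster was led by Svs5, Svs2 and Svs4. The Cre is driven by a prostate epithelial gene, and which epithelial-like cells had recombined was not tested. Levels are given in CPM, the UMIs of a gene per 1000000 UMIs of all genes summed over the same cells. They are compared between cells for 1 gene at a time. Pygo2 in epithelial-like cells had 8.96 and 8.70 CPM (DKO) against 15.98 and 7.24 CPM (TKO), from 10, 33, 25 and 4 UMIs. Of the TKO libraries, replicate 1 lay above and replicate 2 below both DKO libraries, and the log2 change was 0.55 ± 0.54 (edgeR adjusted p = 0.86). Both TKO libraries lay above both DKO libraries for Pygo2 in T-like, neutrophil-like and fibroblast-like cells and below them in NK-like cells. The tags come from the 3′ end of the transcript, and no label places them against the deleted part. The Pygo2 level therefore does not check the labels, and DKO and TKO stand for the libraries labelled so.

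All 9 genes are protein coding in GENCODE vM21 on the mm10 (GRCm38) build named in the submitters' processing notes. Cxcl9 (chr5:92321347-92328079, 4 exons) and Cxcl10 (chr5:92346638-92348889, 4 exons) are neighbours on the minus strand, 18558 bases apart. Ccl22 (chr8:94745590-94751699, 4 exons) and Ccl17 (chr8:94810453-94812036, 3 exons) share the plus strand, 58753 bases apart. Cxcl16 (chr11:70453983-70459984, 6 exons) and Ccl5 (chr11:83525778-83530518, 3 exons) lie on chromosome 11, minus strand. Xcl1 (chr1:164931644-164935527, 3 exons) and Cxcr3 (chrX:101731535-101734269, 2 exons) are on the minus strand, and Cxcr6 (chr9:123806475-123811760, 2 exons) is on the plus strand. Upstream sequence is shown for both neighbour pairs, because they differed in likeness over the 6 classes with at least 20 cells in every library. The levels of Cxcl9 and Cxcl10 followed each other little there (r = 0.105), and those of Ccl22 and Ccl17 closely (r = 0.832). Mature dendritic-like cells were not among these classes. Cxcl9 had only 325 UMIs in all, which limits its r. In fibroblast-like cells 1 barcode held 187 of 195 Ccl17 and 74 of 78 Ccl22 UMIs. RefSeq promoter entries (GRCm38.p6) matched 7 of the 9 members. The windows end at the base before the annotated gene start and read 5′ to 3′ on the gene's strand: chr5:92328080-92328329 (minus) for Cxcl9, chr5:92348890-92349139 (minus) for Cxcl10, chr8:94745434-94745589 (plus) for Ccl22 and chr8:94810203-94810452 (plus) for Ccl17. Capitals mark matches on either strand to the interferon-stimulated response element (GAAA, any 2 bases, GAAA), the NF-kB site (GGGA, any 4 bases, CC) or the gamma-activated site (TTCNNNGAA), and no matches overlap in these windows.
Cxcl9: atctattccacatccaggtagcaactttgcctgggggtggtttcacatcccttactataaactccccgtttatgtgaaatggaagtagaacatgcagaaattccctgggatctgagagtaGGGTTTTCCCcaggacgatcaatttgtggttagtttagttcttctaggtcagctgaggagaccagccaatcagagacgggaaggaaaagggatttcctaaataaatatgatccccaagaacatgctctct
Cxcl10: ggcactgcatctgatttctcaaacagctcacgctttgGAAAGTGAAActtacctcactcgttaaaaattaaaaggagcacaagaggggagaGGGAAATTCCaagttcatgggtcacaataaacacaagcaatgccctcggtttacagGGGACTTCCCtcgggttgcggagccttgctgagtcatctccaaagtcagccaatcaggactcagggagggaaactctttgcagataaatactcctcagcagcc
Ccl22: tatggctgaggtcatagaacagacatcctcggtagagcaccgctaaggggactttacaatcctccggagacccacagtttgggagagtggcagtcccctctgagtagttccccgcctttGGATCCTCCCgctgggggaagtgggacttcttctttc
Ccl17: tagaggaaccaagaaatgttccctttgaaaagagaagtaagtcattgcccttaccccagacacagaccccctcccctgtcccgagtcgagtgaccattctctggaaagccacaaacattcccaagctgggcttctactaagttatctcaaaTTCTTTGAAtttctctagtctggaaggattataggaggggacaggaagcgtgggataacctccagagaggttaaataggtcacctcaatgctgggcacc

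The Cxcl10 window held 1 match to the interferon-stimulated response element, which 2.98% of the 32851 promoter windows of the same 250 bases hold, and 2 matches to the NF-kB site, which 17.6% hold. The Cxcl9 window held 1 match to the NF-kB site and the Ccl17 window 1 to TTCNNNGAA, which 7.02% of such windows hold. The 156-base Ccl22 window held 1 match to the NF-kB site, against 10.3% of windows of that length. These matches describe letters only.

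The receptors were found mainly in T-like cells and the ligands mainly in other classes, though T-like cells held more Ccl5 UMIs than any other class. T-like cells held 75.4% of all Cxcr3 UMIs and 84.1% of all Cxcr6 UMIs. Among the ligands, neutrophil-like cells held the most Cxcl10 (48.9% of its UMIs), type 1 and 2 dendritic-like cells the most Cxcl9 (38.2%) and Ccl17 (73.9%), and mature dendritic-like cells the most Ccl22 (60.9%). Cxcl16 was spread over epithelial-like (27.6%), macrophage- and monocyte-like (26.8%) and type 1 and 2 dendritic-like cells (23.3%). T-like and NK-like cells held 48.6% and 34.7% of the Ccl5 UMIs and 17.3% and 79.3% of the Xcl1 UMIs.

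**Figure D1:**
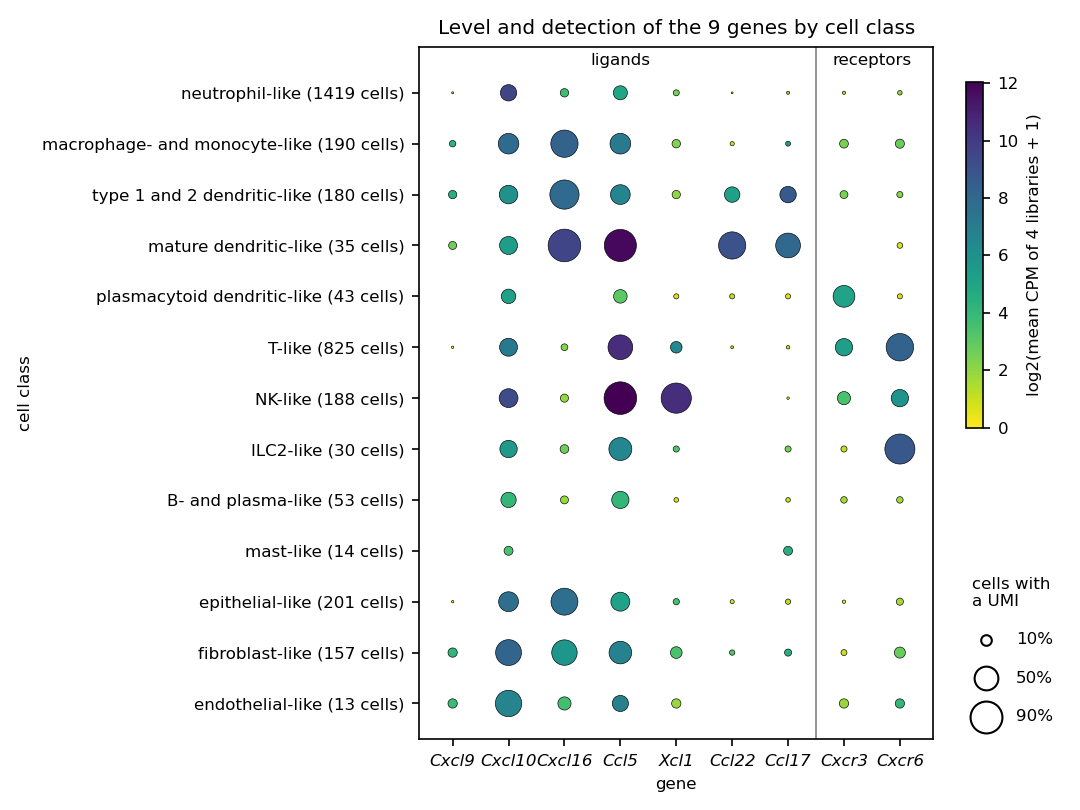
Each row is a cell class and each column a gene. Colour gives log2(CPM + 1) of the mean of 4 libraries, and area gives the percentage of cells with at least 1 UMI over all libraries. Cxcr6 is seen in 66.7% of T-like and 80.0% of ILC2-like cells, while Ccl22 is seen in 65.7% of mature dendritic-like cells and in at most 21.1% of cells of another class.

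Cxcl10 was highest in neutrophil-like cells. Its level, summed over the cells of the class in each library, was 460.3 and 837.8 CPM (DKO) against 872.6 and 872.3 CPM (TKO). DKO replicate 1 was low and the other 3 were close together. Within the class 1 of 4 clusters, led by the interferon-induced genes Rsad2, Ifit1 and Ifit2, held most of it, and Cxcl10 itself took no part in the clustering. There its level was 3793 and 2993 CPM (DKO) against 4054 and 3678 CPM (TKO), with 53.9% of its 280 cells positive. The Siglecf-led, Retnlg-led and Il23a-led neutrophil-like clusters had mean levels of 70.9, 57.2 and 102 CPM, and 14.7% to 20.7% of their cells held a UMI. The interferon-gene-led cluster made up 9.79% and 27.7% of neutrophil-like cells (DKO) against 19.9% and 23.1% (TKO), lowest in the same library in which the Cxcl10 level of the class was lowest. Other classes each held some Cxcl10. In neutrophil-like cells and in these classes alike, few cells held 50% of the UMIs. They were 18 of 1419 neutrophil-like cells (of 7529 UMIs), 2 of 188 NK-like cells (of 1606) and 8 of 825 T-like cells (of 1637). The highest NK-like cell had 596 UMIs of Cxcl10, with 4 of 9 NK markers and 5 of 9 T markers detected and 2 of 9 neutrophil markers (3 UMIs). Fibroblast-like cells differed in having 59.2% of cells positive, with a median of 7 UMIs per positive cell against 1 in T-like and in NK-like cells. With every cell thinned to 2000 UMIs, 13.5% of neutrophil-like, 20.1% of fibroblast-like, 10.7% of T-like and 12.5% of NK-like cells held Cxcl10. Among the 33 low-depth barcodes 30.3% did. Exactly 1 UMI was found in 147 of 336 positive neutrophil-like, 119 of 235 positive T-like and 33 of 59 positive NK-like cells. Whether single UMIs in any class were background was not tested. Over the 6 classes with at least 20 cells in every library, no neighbours in the order of Cxcl10 levels were separated by their library ranges.

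Cxcl9 was scarce, with 325 UMIs in 43 of 3381 cells. Type 1 and 2 dendritic-like cells had 12 and 0 UMIs in DKO and 45 and 67 in TKO, which are 13.6, 0, 23.3 and 48.2 CPM. Both TKO libraries lay above both DKO libraries, and the groups did not overlap for 36.9% of all genes tested in these cells. The 0 UMIs of DKO replicate 2 came from 37 cells, which allows up to 8.11% of cells with a UMI, counting error only. Macrophage- and monocyte-like cells averaged 18.3 CPM and fibroblast-like cells 17.2 CPM, and the library ranges of these 3 classes overlapped. Among dendritic-like cells with a UMI of the type 1 markers Xcr1 or Clec9a, Cxcl9 stood at 46.1, 0, 69.8 and 28.1 CPM in DKO replicates 1 and 2 and TKO replicates 1 and 2. In those with the type 2 marker Cd209a only, it stood at 0, 0, 2.82 and 91.3 CPM. The class had 0 Cxcl9 UMIs in DKO replicate 2, so no subset could carry it in every library. Cells with Xcr1 or Clec9a carried it in each of the remaining libraries. Over all libraries 7 of 61 such cells were positive, against 3 of 89 with Cd209a only. Over all cells, 4 cells held 50% of the UMIs. Of the 12 fibroblast-like cells with Cxcl9, 11 also had Cxcl10 (91.7%, against 56.6% of those without), with median depths of 68113 and 41998 UMIs.

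Cxcl16, the partner of Cxcr6, was spread over many cells: 84 of its 658 positive cells held 50% of its 5557 UMIs. In mature dendritic-like cells it was found in 33 of 35 cells, at 804.3 and 654.0 CPM (DKO) against 681.1 and 908.0 CPM (TKO), and the groups overlapped. Macrophage- and monocyte-like cells followed, at 365.4 and 448.6 CPM (DKO) against 291.8 and 124.3 CPM (TKO). Both TKO libraries were below both DKO libraries there, where 37.1% of all genes tested did not overlap either. Epithelial-like cells had 255.2 and 235.0 CPM (DKO) against 158.5 and 202.6 CPM (TKO), again without overlap (as for 36.8% of all genes tested in them), and 64.2% of cells were positive. The levels of macrophage- and monocyte-like, type 1 and 2 dendritic-like and epithelial-like cells overlapped in range. Each of fibroblast-like (52.1 CPM), neutrophil-like (13.02 CPM) and T-like cells (3.51 CPM) had a range below that of the class before it. No 10 cells held more than 31.8% of the Cxcl16 UMIs in epithelial-like, macrophage- and monocyte-like or type 1 and 2 dendritic-like cells.

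**Figure D2:**
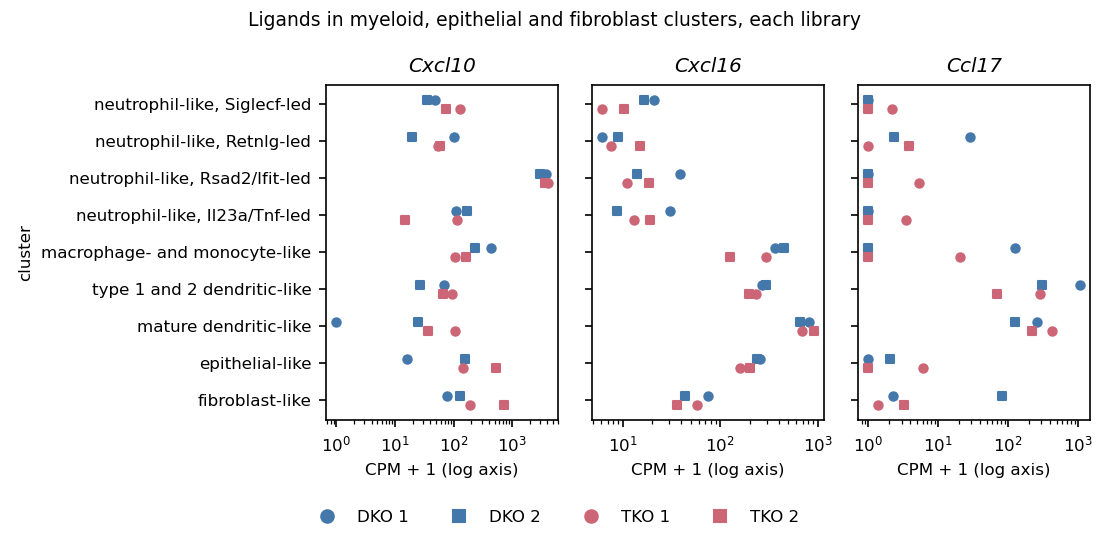
Points are libraries, and the horizontal axes give CPM + 1 on a log scale for 3 ligands in 9 clusters (blue DKO, red TKO, circle replicate 1, square replicate 2). Cxcl10 in the Rsad2- and Ifit-led neutrophil-like cluster lies between 2993 and 4054 CPM, and Cxcl10 in the other clusters plotted does not exceed 739 CPM.

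Ccl5 was high in NK-like cells, in mature dendritic-like cells and in the T-like cluster led by Cd8a and Gzmk. NK-like cells had 6089 and 3033 CPM (DKO) against 3283 and 4667 CPM (TKO), and the groups overlapped. The Cd8a- and Gzmk-led cluster had 5574 and 3748 CPM (DKO) against 4450 and 4505 CPM (TKO), with 94.1% of 256 cells positive. Mature dendritic-like cells had 3280 and 3609 CPM (DKO) against 3201 and 4195 CPM (TKO). Cycling T-like cells, 30 cells led by histone genes and Mki67 with none in DKO replicate 1, averaged 1039 CPM, with 93.3% positive at a median depth of 31550 to 34040 UMIs by library. In the other T-like clusters the gene was lower, at 442 CPM in the Foxp3-led, 305 CPM in the Cd4-led, 17.9 CPM in the Zbtb16-led and 21.6 CPM in the Trdc-led cluster. A UMI of Ccl5 was also found in 17.5% of neutrophil-like cells, 218 of the 248 with exactly 1, at 27.8 to 29.99 CPM by library. Among neutrophil-like cells there were 6.15 Ccl5 UMIs per Xcl1 UMI, and among all other cells 5.83. Of the 33 low-depth barcodes, 36.4% held Ccl5, at 627 CPM against 645 CPM over all cells. Whether Ccl5 in neutrophil-like cells was background was not tested. With every cell thinned to 2000 UMIs, 6.25% of neutrophil-like cells held Ccl5, against 79.8% of NK-like and 33.7% of T-like cells. The Zbtb16-led and Trdc-led clusters, at 4.26% and 1.09% after thinning, did not exceed the neutrophil-like share.

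Xcl1 was mainly an NK-like gene. Its level there was 1169 and 1193 CPM (DKO) against 1994 and 1365 CPM (TKO). Both TKO libraries lay above both DKO libraries, in a class where 38.3% of all genes tested did not overlap. Of 188 NK-like cells, 80.9% held a UMI, against 3.24% of neutrophil-like cells (65.2% against 1.15% after thinning). In the Cd8a- and Gzmk-led cluster 24.6% of cells were positive, with 15.1 and 415.5 CPM (DKO) against 132.3 and 208.7 CPM (TKO). DKO replicate 1 was low in that cluster, with 3 UMIs from 15 cells. Cycling T-like cells averaged 312 CPM of Xcl1, with 36.7% positive. NK-like cells with and without Xcl1 were alike in Ccl5 detection (93.4% and 97.2%), at median depths of 15958 and 8769 UMIs. The interferon gamma gene Ifng was found in 23.0% of NK-like cells with Xcl1 and in 22.2% of those without.

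Ccl22 and Ccl17 were found in dendritic-like cells. Mature dendritic-like cells had 567.4 and 693.4 CPM of Ccl22 (DKO) against 725.4 and 71.0 CPM (TKO), so TKO replicate 2 was low and TKO replicate 1 was not. The UMIs behind these values were 91, 88, 262 and 14, and 2 of 35 cells held 50% of them. In the same cells Ccl17 stood at 261.9 and 126.1 CPM (DKO) against 420.9 and 223.2 CPM (TKO), and the groups overlapped. Type 1 and 2 dendritic-like cells had 1065 and 306.1 CPM of Ccl17 (DKO) against 288.5 and 67.6 CPM (TKO). All DKO values there were above all TKO values, but 1 cell of DKO replicate 1 carried 709 of the 939 UMIs of that library. Ccl22 in these cells was at 27.2 and 68.7 CPM (DKO) against 42.0 and 5.03 CPM (TKO), and overlapped. The genes went together from cell to cell: among type 1 and 2 dendritic-like cells 58.1% of the Ccl17-positive and 9.49% of the Ccl17-negative cells held Ccl22, with median depths of 34222 and 26382 UMIs. The Ccl17-positive share with Ccl22 was above the share among the negative cells in each library, at 55.6% against 0% (5 of 9 cells and 0 of 22) in DKO replicate 1 and 81.8% against 15.4% in DKO replicate 2, and at 61.5% against 13.2% and 3 of 10 cells against 2 of 36 in TKO replicates 1 and 2. Outside dendritic-like cells, 1 fibroblast-like cell of DKO replicate 2 held 187 of 195 Ccl17 UMIs and 74 of 78 Ccl22 UMIs of its class. That barcode had 143375 UMIs against a class median of 43620, and 6 of 8 type 2 dendritic markers with 747 UMIs beside all 8 fibroblast markers. Likewise, 1 macrophage- and monocyte-like cell held 137 of the 179 Ccl17 UMIs of its class.

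Cxcr6 was highest in T-like clusters led by gamma-delta receptor or Il17a genes and in ILC2-like cells. The Trdc-led cluster, whose leading genes encode gamma-delta T-cell receptor chains, had 92.5% of cells positive at a mean of 698.7 CPM. The Zbtb16-led cluster, with Il17a and Il23r among its leading genes, had 91.1% at 564.6 CPM, and ILC2-like cells had 80.0% at 446.8 CPM. Lower values were found in the Cd8a- and Gzmk-led (67.2%, 201.3 CPM), Cd4-led (39.1%, 208.7 CPM) and Foxp3-led clusters (30.8%, 81.7 CPM), in cycling T-like cells (80.0%, 142.6 CPM) and in NK-like cells (26.6%, 57.4 CPM). ILC2-like values by library were 487.6 and 415.6 CPM (DKO) against 347.1 and 536.7 CPM (TKO), from 3, 4, 13 and 10 cells, and overlapped. In neutrophil-like cells 1.83% were positive. After thinning to 2000 UMIs the shares were 66.8% in the Trdc-led, 49.95% in the Zbtb16-led, 31.1% in the Cd8a- and Gzmk-led, 11.6% in the Foxp3-led cluster and 0.824% in neutrophil-like cells.

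Cxcr3 was less abundant, with 582 UMIs in all, and differed from Cxcr6 in where it was found. The Cd4-led cluster averaged 69.2 CPM and the Cd8a- and Gzmk-led cluster 57.6 CPM, with 33.0% and 39.5% of cells positive. The Trdc-led, Zbtb16-led and Foxp3-led clusters averaged 37.0, 22.9 and 13.1 CPM. Cycling T-like cells, which were deeper, averaged 32.5 CPM of Cxcr3, with 15 of 30 cells positive (2.78% after thinning, against 13.6% in the Cd4-led cluster). In the Foxp3-led cluster 21 of 26 UMIs came from DKO replicate 2. Plasmacytoid dendritic-like cells had 30.7 and 26.5 CPM (DKO) against 29.9 and 43.3 CPM (TKO), from 33 UMIs in all, and 41.9% of those cells were positive. T-like cells as a class had 25.7 and 42.3 CPM (DKO) against 44.4 and 43.6 CPM (TKO), where DKO replicate 1 was low. Their range lay above that of every other class with at least 20 cells per library, as it did for Cxcr6. Both receptors were seen together in 148 of 825 T-like cells, and Cxcr6 was found in 67.3% of Cxcr3-positive and 66.4% of Cxcr3-negative T-like cells.

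**Figure D3:**
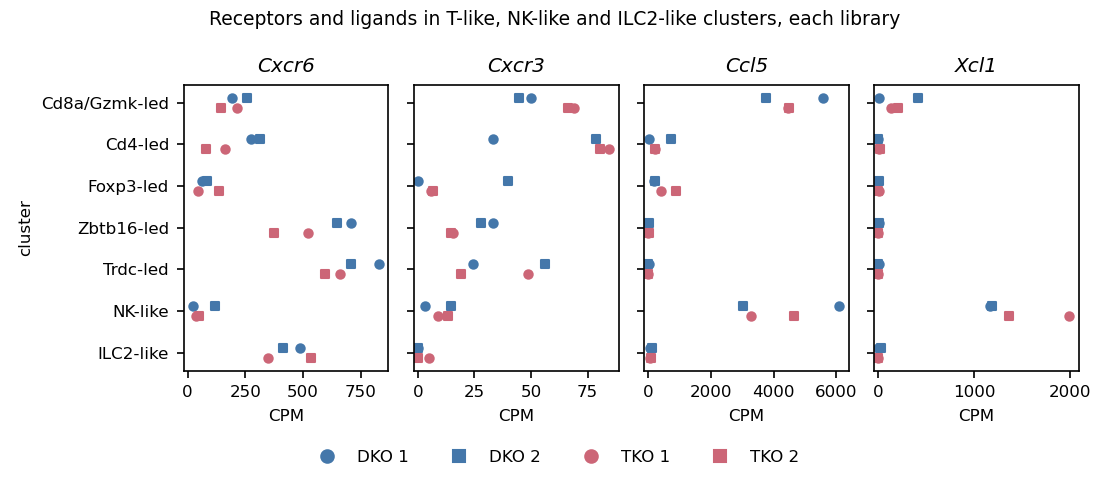
Points are libraries (blue DKO, red TKO, circle replicate 1, square replicate 2), the horizontal axes give CPM on a linear scale, and rows are 7 lymphocyte clusters. Cxcr6 is highest in the Trdc-led and Zbtb16-led clusters, where both TKO libraries lie below both DKO libraries, and Xcl1 is highest in NK-like cells. The share of all genes without overlap of the groups is not given for single clusters.

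Likeness of pattern was taken as Pearson's r of log2(CPM + 1) over 24 sums, 6 classes by 4 libraries, against 9117 genes. Only classes with at least 20 cells in every library entered. Left out were therefore NK-like cells (highest in Ccl5 and Xcl1), mature dendritic-like cells (highest in Cxcl16 and Ccl22) and ILC2-like cells (highest in Cxcr6). These sums share libraries and classes, so r is a description. The genes most like Cxcl16 were Ctsh (r = 0.952), Stxbp6 (0.928) and Arhgef10l (0.927). For Ccl5 they were Cd2 (0.966), Pdcd1 (0.960) and Cd3g (0.955), and for Xcl1 Klrc1 (0.814), Neto2 (0.810) and Carnmt1 (0.798). Ccl22 was most like Zfp366 (0.865), Klri1 (0.847) and Ppp1r1a (0.844), and Ccl17 most like Cd209d (0.879), Pkib (0.843) and Zfp366 (0.832). Cxcr3 was most like Mbnl1 (0.919), Nfatc3 (0.917) and Pdcd1 (0.908), and Cxcr6 most like Tcrg-C2 (0.957), Trgv2 (0.945) and Cd3g (0.944). Cxcl10 came closest to Btbd19 (0.833), Cited2 (0.813) and Adgrv1 (0.794), and Cxcl9, with few UMIs, to Tm2d2 (0.648), Cenpx (0.639) and Gatm (0.634). Between members, r was 0.832 for Ccl17 and Ccl22, 0.779 for Cxcr3 and Cxcr6, 0.105 for Cxcl9 and Cxcl10, and -0.675 for Cxcl16 and its receptor Cxcr6.

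The libraries labelled TKO were compared with those labelled DKO, which differ by label in the Pygo2 allele. No member rose or fell at an adjusted p under 0.05 in any of the 6 classes tested (edgeR quasi-likelihood test on UMIs summed per library, Benjamini-Hochberg adjustment over all genes of the class). Of 28 tests of a member in a class, 5 had an unadjusted p under 0.05, by edgeR. DESeq2, with no filter of that kind, fitted 54 pairs of a member and a class and gave an adjusted p for 32. It called 0, and 8 had an unadjusted p under 0.05, beside 1.68% of all genes over these classes. Without the filter on low counts edgeR called 6 members, and it then called more genes in all. These were Ccl5 in T-like cells (1% of all genes called), Cxcl10 and Cxcl16 in macrophage- and monocyte-like cells (174 of 16915 genes, 1.03%), Cxcl9 in type 1 and 2 dendritic-like cells (1.37%), and Ccl5 and Xcl1 in epithelial-like cells (1.25%). The fits without 1 library that called a member also called more of all genes than the fit with 4. Without DKO replicate 1 the 2 members called were Ccl17 and Ccl22 in fibroblast-like cells (0.156% of all genes). Without DKO replicate 2 they were Xcl1 in T-like (1.22%) and Cxcl10 in macrophage- and monocyte-like cells (0.962%). Without TKO replicate 1 they were Cxcl10 in T-like (0.86%) and Xcl1 in epithelial-like cells (0.866%), and without TKO replicate 2 there were 0. Members passing the filter on low counts numbered 6 in T-like, 4 in neutrophil-like, 4 in macrophage- and monocyte-like, 6 in type 1 and 2 dendritic-like, 3 in epithelial-like and 5 in fibroblast-like cells. A gene passes partly through the group in which it is high, so these are not all members. Few genes of any kind were called: 0.0474% in T-like, 0.011% in neutrophil-like, 0.0391% in macrophage- and monocyte-like, 0.0494% in type 1 and 2 dendritic-like, 0% in epithelial-like and 0% in fibroblast-like cells. Unadjusted p-values under 0.05 were found for 2 of 6 members in T-like cells, beside 6.41% of all genes tested there. They were found for 2 of 4 in macrophage- and monocyte-like cells (6.6% of all genes) and for 1 of 6 in type 1 and 2 dendritic-like cells (6.71%). No member had one in neutrophil-like (4.01%), epithelial-like (5.68%) or fibroblast-like cells (3.77%). NK-like cells, with 19 in DKO replicate 1, were tested as an addition made after seeing the data: 0 of 5 members was called (0.026% of all genes) and 1 had an unadjusted p under 0.05 (6.61% of all genes). DESeq2 called 0 there, with 1 unadjusted. In these cells Cxcr6 was called without DKO replicate 1 (log2 change -1.54, with 0.89% of all genes called), Ccl5 without DKO replicate 2 (-0.74, with 1.82%) and Cxcl10 without TKO replicate 2 (-4.09, with 0.0348%). Libraries of the groups did not overlap for 28.9% of all genes tested in neutrophil-like and 31.9% in fibroblast-like cells, where the same held for 2 of 4 and 2 of 5 members. Median log2 changes of the members tested were 0.31 in T-like, 0.04 in neutrophil-like, -1.20 in macrophage- and monocyte-like, 0.12 in type 1 and 2 dendritic-like, 1.43 in epithelial-like and -0.17 in fibroblast-like cells, where those of all genes lay between -0.01 and 0.02.

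**Figure D4:**
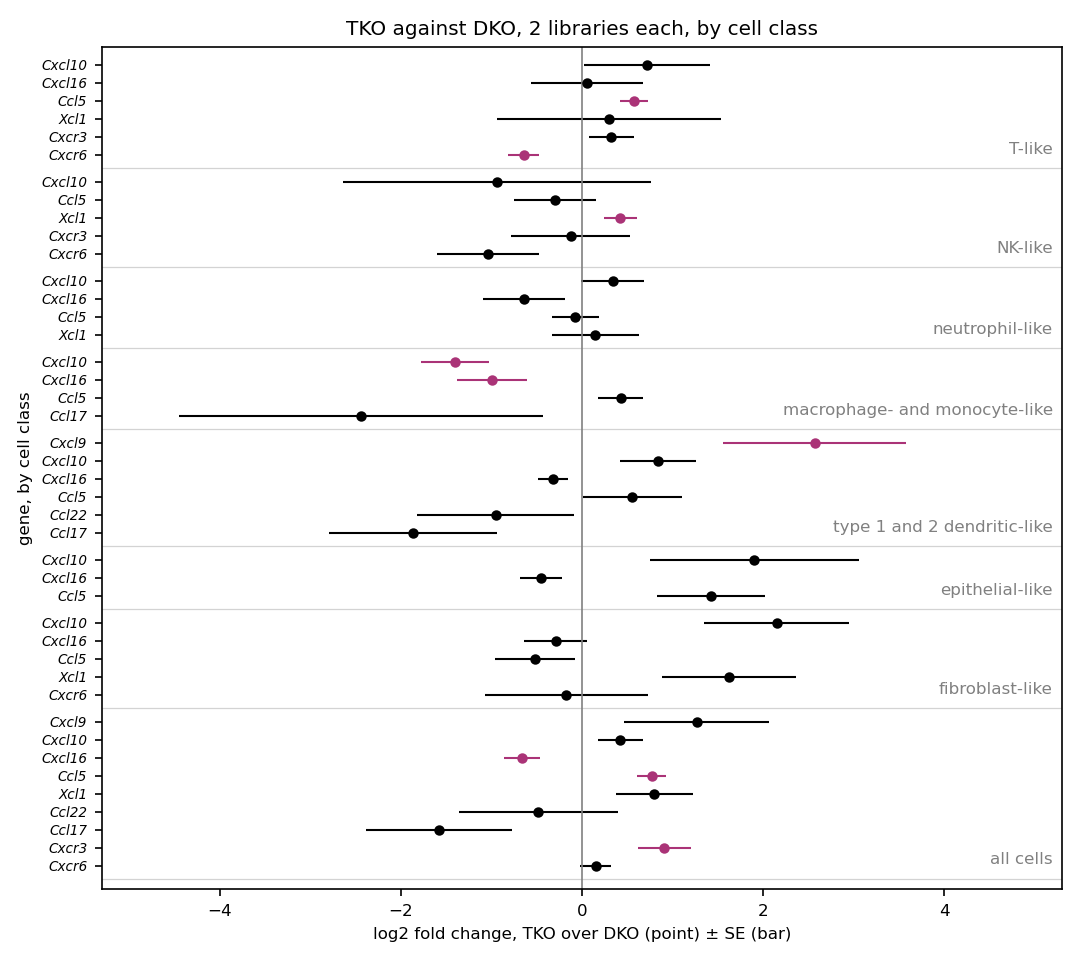
Points give the log2 fold change of TKO over DKO from edgeR and bars its standard error, for each member that passed the filter in each class and in all cells summed. Coloured points had an unadjusted p under 0.05; none passed after adjustment, and Cxcl10 lies at -1.41 in macrophage- and monocyte-like cells but at 2.15 in fibroblast-like cells.

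Cxcr6 in T-like cells stood at 429.9 and 352.8 CPM (DKO) against 263.3 and 227.7 CPM (TKO). Both TKO libraries were below both DKO libraries, with no overlap for 36.4% of all genes tested in T-like cells, and the log2 change of -0.64 ± 0.17 (SE) had an adjusted p of 0.36 (edgeR). By cluster, the values were 708.8 and 649.5 against 524.0 and 376.1 CPM in the Zbtb16-led cluster and 830.5 and 708.0 against 661.6 and 594.6 CPM in the Trdc-led cluster, DKO first. In the Cd4-led cluster they were 276.8 and 314.6 against 162.9 and 80.5 CPM. The groups did not overlap in these 3 clusters, and they did in the Cd8a- and Gzmk-led (190.8 and 257.9 against 213.2 and 143.4 CPM) and the Foxp3-led cluster (60.9 and 83.4 against 45.8 and 136.7 CPM). The share of all genes without overlap is not given for single clusters, so these cannot be set against it. The Cd4-led cluster had 9 cells in DKO replicate 1 and the Trdc-led cluster 10 in TKO replicate 2. The makeup of the class also differed. The Trdc-led cluster, highest in Cxcr6, was 26.6% and 12.6% of T-like cells (DKO) against 7.69% and 3.89% (TKO). The Foxp3-led cluster, lowest in mean Cxcr6 of the T-like clusters, also had a lower share in both TKO libraries. It held 27 of 94 and 36 of 175 T-like cells (DKO) against 42 of 299 and 25 of 257 (TKO). The share of the Zbtb16-led cluster, also high in Cxcr6, overlapped (19.1% and 26.3% against 23.7% and 30.7%). The share of the Cd8a- and Gzmk-led cluster was higher in both TKO libraries. Summed marker levels of T-like cells were lower in TKO without overlap for the 7 gamma-delta markers (1680 and 959.2 against 883 and 805.3 CPM), the 7 ILC2 markers (2426 and 1883 against 1366 and 1578 CPM) and the 6 regulatory markers (2845 and 2499 against 2192 and 1796 CPM). The monocyte, type 1 dendritic and mature dendritic marker lists were also lower without overlap. Higher without overlap were the T markers (4175 and 4327 against 4778 and 4504 CPM) and the plasmacytoid dendritic and mast lists. The remaining lists overlapped. The part of these markers and of the makeup in the difference was not tested beyond the values per cluster.

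Ccl5 in T-like cells was at 1164 and 1212 CPM (DKO) against 1915 and 1571 CPM (TKO). The TKO libraries were higher, with a log2 change of 0.57 ± 0.15 and an adjusted p of 0.34 (edgeR), which became 0.035 without the filter on low counts. The Cd8a- and Gzmk-led cluster, which held 42.5% of all Ccl5 UMIs, made up 15 of 94 and 44 of 175 T-like cells (DKO) against 121 of 299 and 76 of 257 (TKO), and within it the Ccl5 levels of the groups overlapped. With T-like and NK-like cells summed as 1 class, an alternative added after seeing the data, Ccl5 was at 2284 and 1747 CPM (DKO) against 2196 and 2182 CPM (TKO), a log2 change of 0.12 ± 0.14. The same sum left Cxcr6 at -0.60 ± 0.16. NK-like cells gave 1812 of 2990 and 3107 of 6089 Ccl5 UMIs of the sum (DKO) against 3321 of 10820 and 3550 of 8416 (TKO). The part of the makeup in these Ccl5 values was not tested. Summed NK markers in T-like cells were 163.1 and 355.2 CPM (DKO) against 782.4 and 138.2 CPM (TKO) and overlapped.

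In macrophage- and monocyte-like cells 2 ligands had TKO values below the DKO values, and neither passed the test. Cxcl10 was at 432.8 and 231.4 CPM (DKO) against 102.9 and 162.8 CPM (TKO), without overlap, and its log2 change of -1.41 ± 0.38 had an adjusted p of 0.53 (edgeR). In that class 3 of 190 cells held 50% of its UMIs. Leaving out DKO replicate 1 gave -0.86 (adjusted p = 0.82) and leaving out DKO replicate 2 -1.79 (adjusted p = 0.039), while -1.09 (adjusted p = 0.55) and -1.74 (adjusted p = 0.76) were found without TKO replicates 1 and 2, respectively. Dropping the filter on low counts brought the adjusted p to 0.00025. For Cxcl16, whose values per library are given above, the log2 change was -0.996 ± 0.39 with an adjusted p of 0.70 (0.035 without the filter). Leaving out 1 library moved it from -0.51 (without TKO replicate 2, adjusted p = 1.00) to -1.76 (without TKO replicate 1, adjusted p = 0.13). Other markers moved in the same class: the 9 macrophage markers summed to 16210 and 19280 CPM (DKO) against 12700 and 6353 CPM (TKO), and the 8 monocyte markers to 1965 and 2692 CPM (DKO) against 3769 and 4639 CPM (TKO). The 9 neutrophil markers summed to 411.6 and 1335 CPM (DKO) against 198.3 and 324.2 CPM (TKO). Without overlap, the epithelial markers were also lower in TKO, and the conventional CD4 and ILC2 markers were higher. Their part in either difference was not tested.

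Cxcl9 in type 1 and 2 dendritic-like cells, at the UMI counts given with its levels, had a log2 change of 2.57 ± 1.01 and an adjusted p of 0.74 (edgeR), or 0.019 without the filter on low counts. It was 1.45 without DKO replicate 2, 3.03 without TKO replicate 1 and 1.94 without TKO replicate 2, with adjusted p-values of 0.55 or above (edgeR). Without DKO replicate 1 the remaining DKO library has 0 UMIs, so no fold is given (adjusted p = 0.13). The 6 type 1 dendritic markers summed to 600.1 and 737.4 CPM (DKO) against 657.8 and 1538 CPM (TKO), highest in the library with most Cxcl9 UMIs, and the groups overlapped. Ccl17 in the same cells had a log2 change of -1.86 ± 0.93 with an adjusted p of 0.79, and of -0.74 without DKO replicate 1 and -3.25 without TKO replicate 1. Xcl1 in NK-like cells had a log2 change of 0.43 ± 0.19 with an adjusted p of 0.76, and of 0.11 without TKO replicate 1 and 0.68 without TKO replicate 2. The 9 NK markers of that class summed to 3451 and 2821 CPM (DKO) against 4178 and 5316 CPM (TKO), and neutrophil markers to 141.1 and 148.4 CPM (DKO) against 678.2 and 644.2 CPM (TKO), both without overlap. The 9 T markers went the other way without overlap, at 2517 and 2262 CPM (DKO) against 2237 and 1750 CPM (TKO). So did the regulatory and gamma-delta markers. Plasma, type 1, type 2 and mature dendritic, fibroblast and endothelial markers were higher in TKO without overlap. The part of these markers was not tested.

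**Figure D5:**
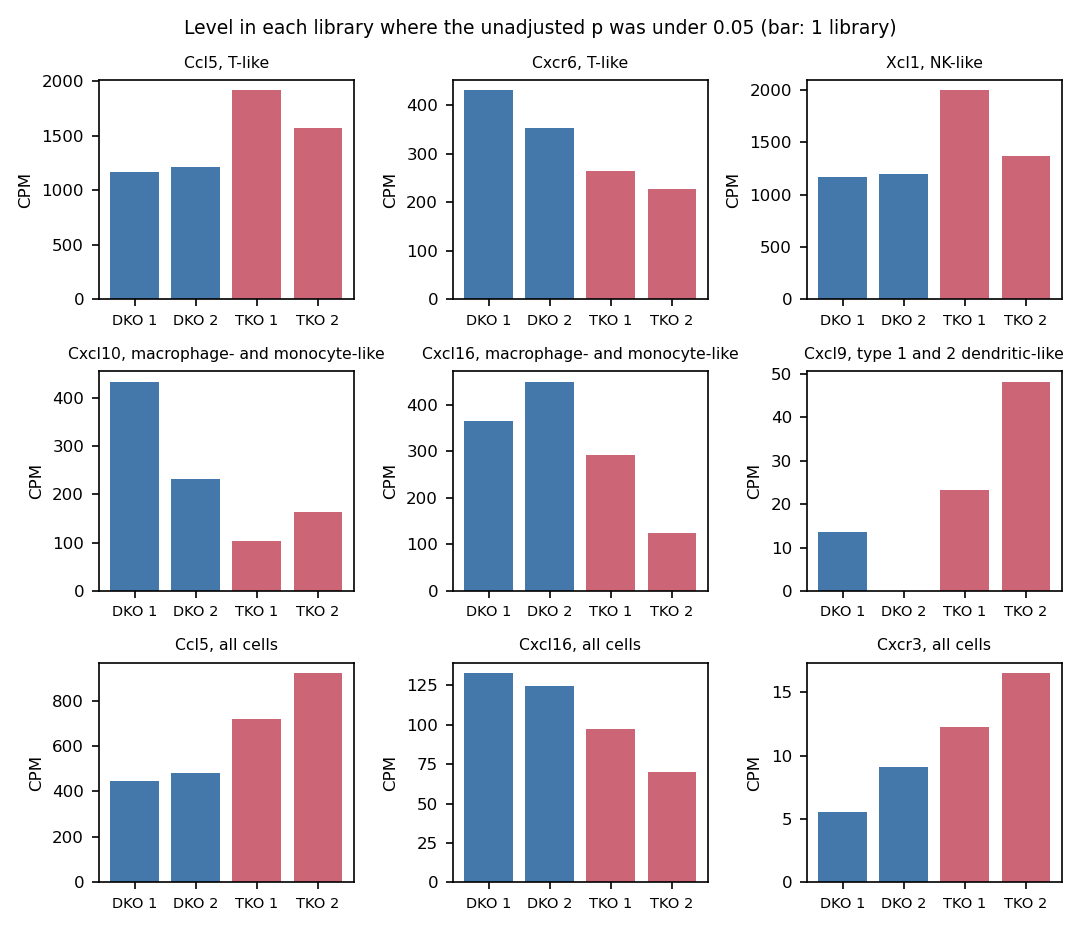
Bars give the CPM of 1 library each (blue DKO, red TKO) for the 9 combinations of gene and class with an unadjusted p under 0.05, chosen for that p. The groups do not overlap in the panels, which choosing by p favours, and none passed after adjustment.

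With all cells of a library summed, fewer cells of a type and less RNA per cell cannot be told apart. Of the 9 members, 0 were called (0% of all genes tested were), and 3 had an unadjusted p under 0.05, beside 11.8% of all genes. DESeq2 called 1, Ccl5, beside 2.26% of all genes, and edgeR without the filter called Ccl5 beside 1.13%. The groups did not overlap for 5 of 9 members and for 45.8% of all genes tested. Ccl5 stood at 448.0 and 480.4 CPM (DKO) against 717.3 and 919.1 CPM (TKO), a log2 change of 0.77 ± 0.16 (edgeR adjusted p = 0.26). Cxcr3 was at 5.56 and 9.07 CPM (DKO) against 12.3 and 16.5 CPM (TKO), a change of 0.91 ± 0.29 (edgeR adjusted p = 0.34). Cxcl16 went the other way, from 132.4 and 124.4 CPM in DKO to 97.0 and 70.3 CPM in TKO, a change of -0.66 ± 0.20 (edgeR adjusted p = 0.32). T-like cells were 94 of 617 and 175 of 759 cells in DKO and 299 of 1208 and 257 of 797 in TKO. Macrophage- and monocyte-like cells were 37, 33, 78 and 42 of the same totals. Epithelial-like cells, which held the most Cxcl16 UMIs, were 35 and 88 (DKO) against 52 and 26 (TKO), a lower share of each TKO library than of either DKO library. The part of these cell numbers in the levels was not tested.

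The share of positive cells was compared in the class where each member was highest. With 2 libraries against 2, the exact two-sided permutation test cannot give a p below 0.333. That value was reached by Ccl22 in mature dendritic-like cells, by Cxcl16 in the same cells and by Ccl17 in type 1 and 2 dendritic-like cells. For Ccl22 the shares were 83.3% and 100% (DKO) against 66.7% and 33.3% (TKO), with exact 95% intervals of 35.9% to 99.6%, 47.8% to 100%, 38.4% to 88.2% and 7.49% to 70.1%. The intervals all overlap, since the libraries had 6, 5, 15 and 9 such cells. For Ccl17 the shares were 29.0% and 29.7% (DKO) against 19.7% and 21.7% (TKO). For Cxcl16 they were 100% and 100% (DKO) against 93.3% and 88.9% (TKO). The mean share was higher in TKO for 5 of the 9 members (Cxcl9, Cxcl10, Ccl5, Xcl1 and Cxcr3), by 1.09 to 5.90 percentage points, with p-values of 0.667 or 1.

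Ccr4, which binds CCL17 and CCL22, averaged 138.2 CPM in ILC2-like and 42.5 CPM in T-like cells, and its change in T-like cells was -0.13 ± 0.24. Xcr1, which binds XCL1, is a marker of the dendritic class and had a log2 change of 0.99 ± 0.82 there (adjusted p = 0.88, edgeR), with 10.2 and 34.8 CPM (DKO) against 18.7 and 73.4 CPM (TKO). Of 64 further genes of the chemokine system (other ligands and receptors, interferon gamma signalling, ligand shedding and trimming, lymphocyte homing), 63 were in the files. None was called in any class by edgeR, among 44 tested in T-like, 37 in neutrophil-like, 37 in macrophage- and monocyte-like, 37 in type 1 and 2 dendritic-like, 30 in epithelial-like, 44 in fibroblast-like and 32 in NK-like cells. Those with an unadjusted p under 0.05 numbered 2 higher and 5 lower in T-like, 0 and 1 in neutrophil-like, 5 and 2 in macrophage- and monocyte-like, 6 and 4 in type 1 and 2 dendritic-like, 7 and 0 in epithelial-like, 4 and 1 in fibroblast-like and 1 and 3 in NK-like cells. The shares of all genes tested with such a p are those given for these classes above. Median log2 changes of the list were -0.09 in T-like, 0.12 in macrophage- and monocyte-like, 0.07 in type 1 and 2 dendritic-like and 0.35 in epithelial-like cells, beside 0.009, -0.008, 0.002 and 0.019 for all genes tested.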

How the data were processed

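Per the submitters' processing notes, the authors aligned the reads to mm10 with STAR in Cell Ranger 7.0.0 and deposited raw UMI counts per gene and cell, one matrix per library. These counts were used as deposited. Barcodes below 200 genes or above 20% mitochondrial UMIs were dropped. Scanpy 1.11.5 clustered the rest (2000 variable genes, 30 components, 20 neighbours, Leiden resolution 1.0), and a cluster was named by at least 3 raised markers. The members and the other listed chemokine ligands and receptors were left out of the variable genes. The listed genes of interferon gamma signalling, ligand shedding and trimming and lymphocyte homing were not left out. Libraries were not corrected for batch, and no doublet caller was run. Counts were summed per class and library and tested with edgeR 4.0.16 in R 4.3.3 (quasi-likelihood, TMM scaling, filterByExpr, group as the only term) in classes with at least 20 cells in every library. DESeq2 1.42.0 was an alternative, beside no filter on low counts, stricter cell filters, resolution 2.0, clustering with the chemokine genes kept, a replicate block and leaving out each library. Shares of positive cells were compared by the exact permutation test, also after thinning to 2000 or 1000 UMIs, which leaves out 96 or 42 shallower cells. Intervals (exact Clopper-Pearson, 95%) and the limit for 0 positive cells (3 counts) cover counting error only. The test of NK-like cells and the sum of T-like and NK-like cells were chosen after seeing the data.

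The genes named were the 9 members in every class, Ccr4 and Xcr1, Pygo2, and for each member the 3 genes with the highest correlation among those with at least 20 CPM on average in a class. Each member was described in full in its highest class and where its unadjusted p was under 0.05. A further gene that this rule names is not reported here. The members and lists were chosen with earlier results of these data known. The scripts were tested on simulated data.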

Additional observations from a re-analysis of the deposited data

Results flagged for a closer look

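Cxcl10 was higher in both TKO libraries than in both DKO libraries in some classes and lower in another. The log2 change of TKO over DKO was 0.34 in neutrophil-like and 2.15 in fibroblast-like cells, where every TKO library lay above every DKO library. In macrophage- and monocyte-like cells it was -1.41, with every TKO library below every DKO library. The groups did not overlap for 28.9% of all genes tested in neutrophil-like, 31.9% in fibroblast-like and 37.1% in macrophage- and monocyte-like cells. The nearest neutrophil-like values were 837.8 CPM (DKO replicate 2) and 872.3 CPM (TKO replicate 2). None of the 3 changes passed after adjustment (edgeR), and the difference between the classes was not tested. The neutrophil-like change turned to -0.084 when DKO replicate 1 was left out. The fibroblast-like values were 76.7 and 129.9 CPM (DKO) against 186.1 and 739.1 CPM (TKO), with 7 of 157 cells holding 50% of the UMIs.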

How the results depend on the processing

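Members called in the 6 classes numbered 0 with edgeR, DESeq2, the stricter cell filters, Leiden resolution 2.0, the chemokine genes kept in the clustering, NK-like cells added, or T-like and NK-like cells summed. They numbered 6 without the filter on low counts and 0 to 2 with a library left out. With all cells summed, 1 member (Ccl5) was called by DESeq2 (adjusted p = 0.0091) and 1 (Ccl5) by edgeR without the filter (adjusted p = 0.021), and 0 under the other alternatives run. With the replicate number as a replicate block, 1 member was called in the classes, Ccl17 in type 1 and 2 dendritic-like cells (-1.96 ± 0.16, edgeR adjusted p = 0.0036, with 22 of 8091 genes called), and 0 in all cells. The labels give no reason for the numbers to pair libraries. Deviations of same-numbered libraries correlated at 0.42 in neutrophil-like cells, 0.11 in all cells and -0.04 to 0.09 in the other classes, and the Siglecf-led share of neutrophil-like cells was higher in both replicates 1 than in both replicates 2. A check over 2 pairs does not settle whether the numbers mark more than a name. Of 137 alternative values for 14 log2 changes, 2 reversed: leaving out a library moved Cxcl10 in neutrophil-like cells between -0.084 (without DKO replicate 1) and 0.95, and Xcl1 in T-like cells between -0.47 (without DKO replicate 1) and 3.84. The number of members with a higher share of positive cells in TKO was 5, became 3 at Leiden resolution 2.0, and was 3 (without TKO replicate 2) to 5 with a library left out. That number was higher after thinning to 2000 or 1000 UMIs and lower with at least 2 UMIs required. Of 72 alternative values for the 9 differences in share, 12 reversed. With a library left out, the differences (TKO minus DKO, percentage points) ran from -0.196 to 11.99 for Cxcl9, -2.13 to 4.32 for Ccl5, -1.40 to 7.91 for Xcl1, -3.31 to 9.95 for Cxcr3 and -22.7 to 2.31 for Cxcr6. Thinned to 1000 UMIs, they were 1.67 for Cxcl16, -0.264 for Ccl5 and 7.37 for Cxcr6, and thinned to 2000 UMIs 8.72 for Cxcr6. Ccl5 was at -2.72 with at least 2 UMIs required and -2.94 at resolution 2.0, and Xcl1 at -3.28 at resolution 2.0. The cause of these moves was not tested. Classes under 20 cells in a library (mature dendritic-like, ILC2-like, NK-like) limit what their shares can show. At resolution 2.0 the NK-like class had 3 and 20 cells (DKO) against 35 and 33 (TKO).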
